A study of Mus musculus and Homo sapiens with 176 samples.

Results

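RNA of NeuN+ nuclei from the cerebellum was compared with RNA of NeuN+ nuclei from the prefrontal cortex (PFC) of 1 mouse, named M3, with 2 sequencing libraries per region. NeuN, the product of Rbfox3, is a nuclear protein of most mature neurons, and nuclei carrying it were separated by sorting from nuclei without it (NeuN-). Of 24854 features listed in each table, 12691 had at least 1 FPKM (fragments scaled by transcript length and by the mapped fragments of the library) in 2 or more of the 4 libraries with a quantification status of OK, and these are described here. The mouse was of the C57BL/6 strain, 8 to 10 weeks old, and no treatment or genetic change is named for any group. The cerebellum had been frozen before nuclei were extracted, and the sources used here do not say how the PFC was dissected. Both libraries of a region come from the same animal, so a p-value reflects library-to-library scatter, possibly technical only, and says nothing of variation among mice. Bulk libraries cannot tell fewer nuclei of a type from less RNA per nucleus.

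The neurons of these regions belong to different lineages. In the cerebellum, small excitatory granule cells outnumber all other neurons, receive input from mossy fibres and excite Purkinje cells, which are the only output of the cerebellar cortex. In the PFC, glutamatergic pyramidal neurons of several layers are mixed with inhibitory interneurons that carry peptides such as somatostatin. NeuN antibody labels granule cells strongly, while Purkinje cells and several cerebellar interneurons are known to be labelled weakly or not at all.

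The summed FPKM ran from 290314 to 307198 over the 4 libraries and 11256 to 11803 features reached 1 FPKM. The relative depth of the libraries ran from 1 to 1.39, and each cerebellar library was deeper than each prefrontal one. It was estimated from the confidence limits of features with at least 1 FPKM in every library. Libraries of a region ranked features alike (Spearman's rho 0.979 in cerebellum and 0.972 in PFC, across features, which are not independent replicates), and between regions rho ran from 0.710 to 0.715. Levels of 17 pan-neuronal genes varied by member. By the calls described below, 8 (47.1%) were higher, 7 (41.2%) lower and 2 not called in cerebellum. Snap25, a core protein of vesicle fusion, stood at 736 and 748 FPKM in cerebellum and 980.2 and 976 in PFC. Uchl1 stood at 2.07 and 2.85 FPKM in cerebellum against 16.5 and 17.2 in PFC, and Elavl3 at 8.58 and 8.22 against 1.8 and 1.41. Rbfox3 itself stood at 123 and 119 FPKM in cerebellum and 16.2 and 15.7 in PFC, a log2 change of 2.84 ± 0.06 (SE; limma, adjusted p = 1.75e-07). In the NeuN- libraries Rbfox3 stood at 33.3 and 34.5 FPKM in cerebellum and 14.2 and 12.3 in PFC. After scaling, its mean in PFC was 16.7 in NeuN+ and 11.8 in NeuN- nuclei, against 126 and 35.2 in cerebellum. The difference between gates within a region was not tested. The NeuN- libraries also held neuronal RNA: the 17 pan-neuronal genes summed to 898 and 912 FPKM in cerebellar and 2718 and 2808 in prefrontal NeuN- nuclei, against 1641 and 1659 and 1875 and 1852 in NeuN+ nuclei. The part of that neuronal RNA in the contrasts between gates given below was not tested.

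Promoter windows are shown for the largest changes in each direction, because those genes separate the regions most. The sequences are RefSeq windows of GRCm38.p6, read 5′ to 3′ on the gene's strand, of the 250 bases before the annotated start. Gabra6 lies at chr11:42321073-42321322 and Lhx1os at chr11:84525410-84525659, on the minus and plus strand. Rgs4 lies at chr1:169747643-169747892 and Sst at chr16:23890845-23891094, both on the minus strand. Capitals mark matches to the motifs searched on both strands. CAGCTG is an E-box, the type of site that basic helix-loop-helix factors bind. Another E-box searched was CAGATG, and the core promoter element searched was TATAAA. The MEF2-type motif and the palindrome of the cyclic AMP response element (CRE) were searched too, the CRE having been added after earlier values were seen.
Gabra6: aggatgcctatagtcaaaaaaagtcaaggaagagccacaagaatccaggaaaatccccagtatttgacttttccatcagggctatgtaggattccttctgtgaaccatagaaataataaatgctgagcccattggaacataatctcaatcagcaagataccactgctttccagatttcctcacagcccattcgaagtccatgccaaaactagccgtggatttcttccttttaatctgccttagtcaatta
Lhx1os: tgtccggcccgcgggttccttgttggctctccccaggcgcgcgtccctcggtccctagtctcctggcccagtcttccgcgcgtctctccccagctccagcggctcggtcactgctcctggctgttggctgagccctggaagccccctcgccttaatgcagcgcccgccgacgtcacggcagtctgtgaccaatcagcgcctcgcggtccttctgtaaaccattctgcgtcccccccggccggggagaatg
Rgs4: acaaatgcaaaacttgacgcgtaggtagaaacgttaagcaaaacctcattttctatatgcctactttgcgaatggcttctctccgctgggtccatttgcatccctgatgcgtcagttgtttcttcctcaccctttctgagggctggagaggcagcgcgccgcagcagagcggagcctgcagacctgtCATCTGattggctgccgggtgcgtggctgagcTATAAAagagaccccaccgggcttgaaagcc
Sst: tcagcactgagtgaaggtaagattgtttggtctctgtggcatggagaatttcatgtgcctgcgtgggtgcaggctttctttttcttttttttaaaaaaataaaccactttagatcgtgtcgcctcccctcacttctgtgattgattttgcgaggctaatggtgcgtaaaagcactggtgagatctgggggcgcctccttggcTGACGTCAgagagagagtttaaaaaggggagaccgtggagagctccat
The windows of Gabra6 and Lhx1os, both high in cerebellum, held none of these motifs, and held 2 and 24 CpG dinucleotides. In the Rgs4 window, CAGATG lay on the minus strand of the gene 63 bases before the start and TATAAA began 31 bases before it. A CRE began 48 bases before the start of Sst.

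Most features differed between the regions. Of the 12691 features, 4978 (39.2%) were higher and 5347 (42.1%) were lower in cerebellar NeuN+ nuclei by limma on log2(scaled FPKM + 1) at a Benjamini-Hochberg adjusted p under 0.05, which makes 81.4% in all. The median log2 change was -0.02, and which direction had more calls depended on the scaling, as given at the end. Changes of at least 2-fold numbered 1722 (13.6%) higher and 2660 (21%) lower, and changes of at least 4-fold numbered 375 (2.95%) and 825 (6.5%). At least 16-fold changes numbered 58 and 123. The fold is that of FPKM + 1, which understates changes of low features. Of the same features, 112 were at 1 FPKM or more in both cerebellar libraries and listed at 0 in both prefrontal ones, and 385 had the opposite pattern. Because 2 libraries stand against 2, an exact permutation test of a single feature cannot go below p = 0.333, and the calls rest on the spread shared across features. The counts of gene lists below are descriptions, to be read against the 39.2% higher and 42.1% lower of all features. A member under 1 FPKM in both libraries of a region could pass the filter only through the other region, so where a list holds many such members its count and median support no direction.

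**Figure D1:**
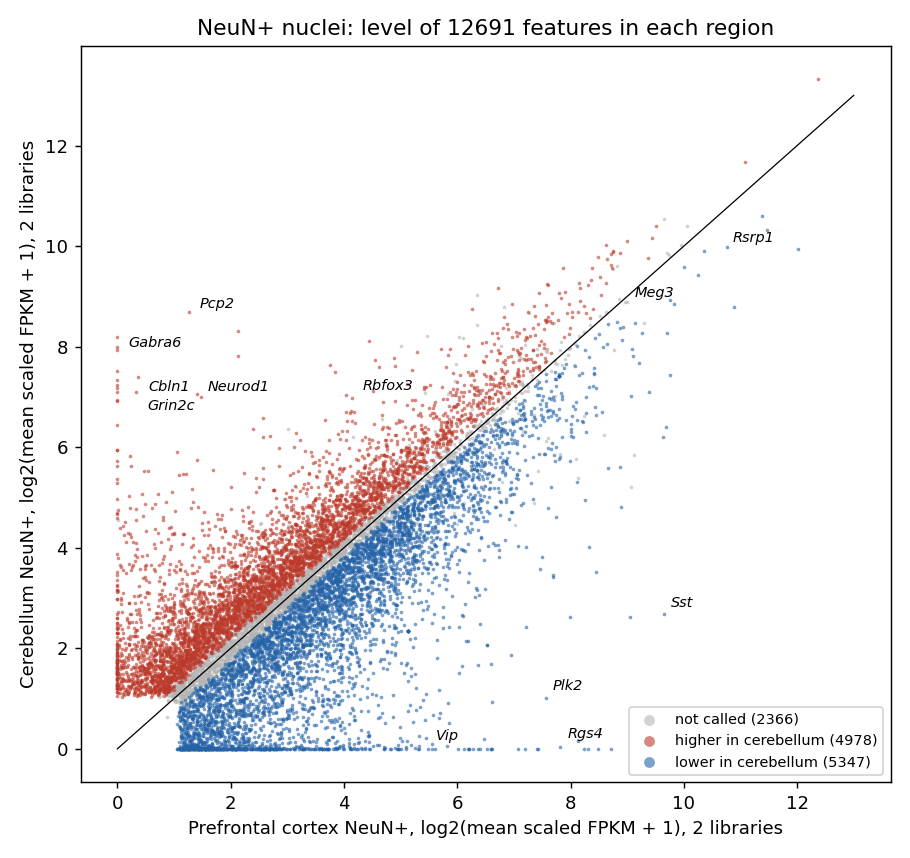
Level of each of the 12691 features in prefrontal (x axis) and cerebellar (y axis) NeuN+ nuclei, as log2 of the mean scaled FPKM of 2 libraries plus 1; the line marks equal levels and colours mark the calls. Granule cell genes such as Gabra6 and Cbln1 lie at the left edge, and Rgs4, Plk2 and Sst lie low at the right.

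Genes of cerebellar granule cells were among the largest increases. Gabra6, the GABA-A receptor subunit typical of granule cells, stood at 241 and 248 FPKM in cerebellum and was listed at 0 in both prefrontal libraries (adjusted p = 5.33e-08, limma). Cbln1, a secreted protein that bridges granule cell axons and Purkinje cells, stood at 163 and 159 FPKM in cerebellum and 0.311 and 0.236 in PFC, a 131-fold difference. Its relative Cbln3 stood at 214 and 215 FPKM against 3.04 and 3.41. The libraries of the regions did not overlap for any of these 3 genes, which the naming rule required. The same held for 44.3% of all features with cerebellum above and 46.4% with it below.

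Grin2c, the NMDA receptor subunit of mature granule cells, stood at 131 and 132 FPKM in cerebellum and 0.236 and 0.26 in PFC. Neurod1, a transcription factor of granule cell differentiation, stood at 127 and 126 FPKM against 1.67 and 1.47. They were 109-fold and 50.1-fold higher in cerebellum, with log2 changes of 6.77 ± 0.05 and 5.65 ± 0.08 (SE). All 18 genes of the granule cell list were reported and all 18 were higher by at least 2-fold, with a median log2 change of 3.40 against -0.02 over all features. Of the 18, 9 were under 1 FPKM in both prefrontal libraries and passed only through cerebellum, so the count and median support no direction. The summed FPKM of the 18 was 1404 and 1416 in the cerebellar libraries and 102 and 105 in the prefrontal ones. Smaller members included Pax6, a rhombic lip transcription factor (25.9 and 24.5 against 0.193 and 0.286 FPKM), and Reln, the secreted glycoprotein that guides migrating neurons (18.6 and 18.3 against 2.61 and 2.58). Gabrd, which encodes the extrasynaptic delta subunit of GABA-A receptors, had the smallest change of the list (112 and 117 against 44.8 and 46.5 FPKM). In NeuN- nuclei 16 of the 18 were higher and 2 lower in cerebellum.

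Several of the 12 largest increases are not usual granule cell markers. Lhx1os, a long noncoding RNA beside Lhx1, stood at 180.1 and 170.1 FPKM and was listed at 0 in PFC. Crtam, known as a cell adhesion molecule of activated T cells, stood at 114 and 119.5 FPKM and was also listed at 0 in PFC. Il20rb, a cytokine receptor subunit, stood at 53.6 and 54.3 FPKM against 0.13 and 0.189. Stap2, a signalling adaptor, stood at 119 and 124 FPKM against 2.07 and 1.35. Each of these 4 genes was far above its prefrontal libraries in both cerebellar ones. Chd7, a chromatin remodeller needed for granule cell development, stood at 46.1 and 47.5 FPKM against 0.126 and 0.226, and Bcl2l15, of the Bcl-2 family, at 44.4 and 42.3 against 0.338 and 0.385.

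**Figure D2:**
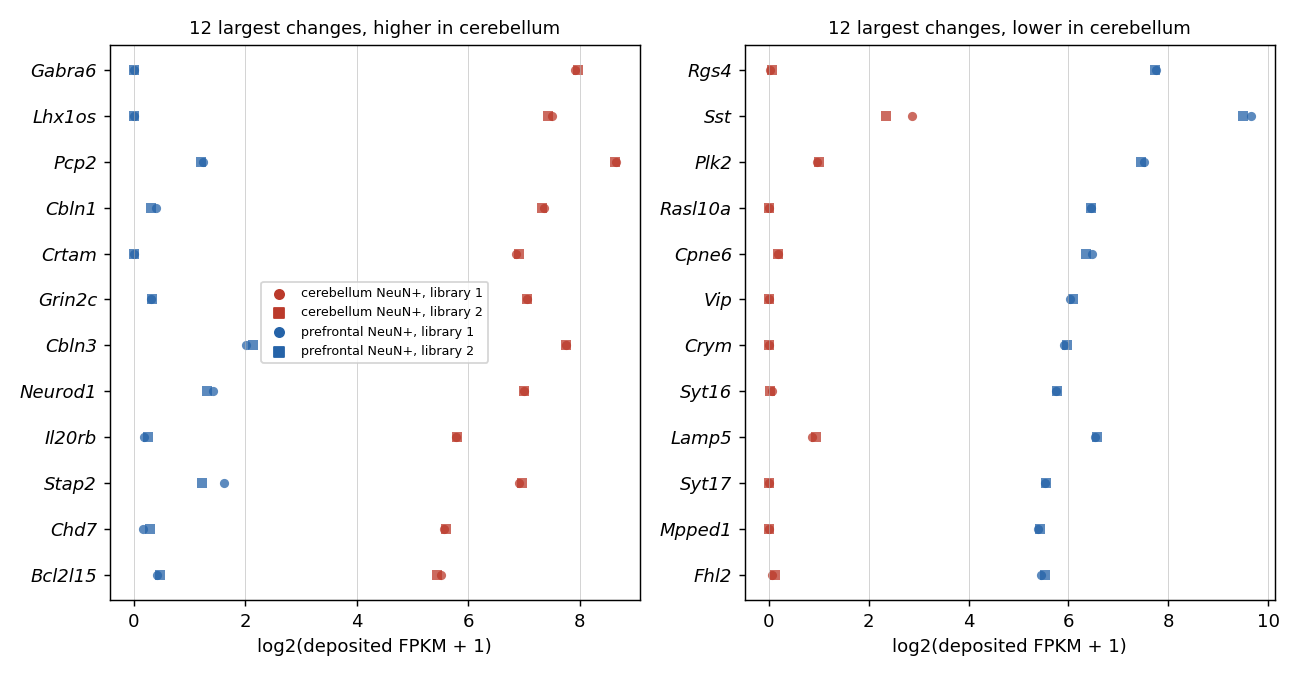
Deposited FPKM, as log2(FPKM + 1), of the 12 largest increases (left) and the 12 largest decreases (right) in each of the 4 NeuN+ libraries; circles are library 1 and squares library 2. The 24 genes were chosen among called features whose regions do not overlap, so their separation is no result. Of all features, 44.3% did not overlap with cerebellum above and 46.4% with it below. Library pairs lie close together, with the widest pair in Sst, at 6.27 and 4.12 FPKM in cerebellum.

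Most reported Purkinje cell genes were higher in cerebellar NeuN+ nuclei. Of 16 listed genes 14 were reported, of which 12 (85.7%) were higher, 1 (7.14%) lower and 1 not called. In both prefrontal libraries 7 of the 16 were under 1 FPKM, so this count supports no direction. Pcp2, a Purkinje cell regulator of G proteins, stood at 398 and 397 FPKM against 1.36 and 1.32 in PFC, and the gene overlaps Pet100. Car8, which binds the inositol trisphosphate receptor, stood at 18.1 and 17.1 FPKM against 0.102 and 0.204. Lhx1, a homeobox factor of Purkinje cells, stood at 22.8 and 24.6 FPKM and was listed at 0 in PFC. Calb1, a calcium buffer that cortical interneurons share, was the lower member (31 and 30.4 against 42.5 and 41.1 FPKM, log2 change -0.44 ± 0.07, SE). The list summed to 1989.5 and 1955 FPKM in the NeuN+ and 1701 and 1784 in the NeuN- nuclei of cerebellum. Pcp2 was close to as high in the cerebellar NeuN- libraries, at 358 and 389.7 FPKM.

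Regional transcription factors included large differences in both directions. Of 18 factors of hindbrain and rhombic lip patterning, 11 passed the filter, 10 of them higher and 1 lower. Zic1 stood at 28.2 and 26.1 FPKM in cerebellum against 0.445 and 0.332 in PFC. En2, a homeobox factor of the midbrain and hindbrain border, stood at 19.6 and 18.7 FPKM against 0 and 0.0495. Meis2 was the exception, at 0.636 and 0.605 FPKM against 6 and 5.42. Of the 18 factors, 17 were under 1 FPKM in both prefrontal libraries and 8 in both cerebellar ones. Each of the 10 higher members passed only through cerebellum, and Meis2 only through PFC, so the count by itself supports nothing.

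Factors of cortical projection neurons included large decreases. Of 23 listed, 20 were reported, with 17 lower, 2 higher and 1 not called. In both cerebellar libraries 16 of the 23 were under 1 FPKM, against 3 in PFC, so this count supports no direction. Mef2c, an activity-regulated factor of excitatory neurons, stood at 2.02 and 2.28 FPKM in cerebellum and 91.8 and 92.1 in PFC (log2 change -4.91 ± 0.06, SE). Emx1, which marks the dorsal forebrain lineage, was listed at 0 in cerebellum and stood at 10.3 and 11.7 FPKM in PFC. Tbr1 and Fezf2, which specify deep-layer neurons, were also listed at 0 in cerebellum, with 6.33 and 6.7 and 5.75 and 5.57 FPKM in PFC. Neurod2 was the main exception, at 37 and 36.6 FPKM against 9.5 and 8.19, and its relative Neurod6 had the opposite pattern, at 0.367 and 0.273 against 4.05 and 4.93.

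Rgs4, a gene of cortical projection neurons, had the largest decrease under the naming rule. All 17 listed genes were reported, 16 were lower by at least 2-fold and 1 was not called, with a median log2 change of -3.54. In both cerebellar libraries 11 of the 17 were under 1 FPKM, and none in PFC, so this count and median support no direction. Rgs4, which shortens G protein signals, stood at 0.0217 and 0.0386 FPKM in cerebellum and 216 and 212 in PFC, a 218-fold difference (log2 change -7.77 ± 0.05, SE; adjusted p = 3.5e-09, limma). Lamp5, a lysosome-associated protein of upper-layer neurons and interneurons, stood at 0.813 and 0.934 FPKM against 91.5 and 94. Crym, a thyroid hormone binding protein of deep-layer neurons, was listed at 0 in cerebellum and stood at 59.3 and 61.7 FPKM in PFC. The gene not called was Slc17a7, the vesicular glutamate transporter that granule cells and cortical pyramidal neurons share, at 2.41 and 2.8 FPKM in cerebellum and 2.86 and 2.88 in PFC.

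The remaining large decreases covered several cell functions. Plk2, an activity-induced kinase, stood at 0.96 and 1.02 FPKM in cerebellum and 183 and 176 in PFC. Cpne6, a calcium-dependent membrane protein of hippocampal and cortical neurons, stood at 0.132 and 0.133 FPKM against 87.8 and 81.1. Rasl10a, a small GTPase, Syt17, a synaptotagmin, and Mpped1 were each listed at 0 in both cerebellar libraries, with 86.2 and 87, 45.1 and 45.6 and 41 and 42.4 FPKM in PFC. In these genes both prefrontal libraries were high and close to each other. Rasl10a overlaps Gas2l1. Syt16 stood at 0.0475 and 0.0211 FPKM against 52.7 and 53.9, and Fhl2 at 0.0489 and 0.0869 against 42.9 and 45.1.

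Several cortical interneuron genes and neuropeptides were far lower in cerebellum. Of 25 interneuron genes 17 were reported, with 13 lower and 4 higher. In both cerebellar libraries 15 of the 25 were under 1 FPKM, against 6 in PFC, so this count supports no direction. Sst, the peptide somatostatin, stood at 6.27 and 4.12 FPKM in cerebellum and 806 and 724 in PFC, a 127-fold difference (log2 change -6.99 ± 0.23, SE; adjusted p = 6.49e-07, limma). Npy, neuropeptide Y, stood at 10.9 and 9.37 FPKM against 343 and 324, and Vip was listed at 0 in cerebellum against 64.6 and 67.1 FPKM. Gad1, which makes GABA, was lower too (17.6 and 18.1 against 58.7 and 59.4 FPKM). The higher members included Pvalb, a calcium buffer that Purkinje cells and basket cells express (262 and 267 against 19.2 and 20.2 FPKM) and the factor Maf (18.9 and 19 against 1.69 and 2.26).

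Among 19 neuropeptide genes, 17 were reported, 15 lower and 2 higher, with a median log2 change of -2.58. In both cerebellar libraries 10 of the 19 were under 1 FPKM, against 2 in PFC, so this count and median support no direction. Cck, cholecystokinin, stood at 28.1 and 24.3 FPKM in cerebellum and 469 and 440.0 in PFC, and Tac1, substance P, at 0.0714 and 0 against 36.9 and 38.3. Crh, corticotropin-releasing hormone, was listed at 0 in cerebellum and stood at 16.8 and 17.7 FPKM in PFC. The 2 higher members changed little: Nmb stood at 10.5 and 12.1 FPKM against 8.89 and 9.39, and the granin Chgb at 188 and 189.5 against 159.9 and 170.5 (log2 change 0.18 ± 0.07, SE; adjusted p = 0.0454, limma). Leaving out either cerebellar library, or either prefrontal one, ended the call of Chgb. In 13 members with a single RefSeq window, 4 held a CRE (Scg2, Chgb, Cartpt and Sst). Over the 7820 windows of reported features 273 (3.49%) held one, and over all 22862 single windows 423 (1.85%).

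**Figure D3:**
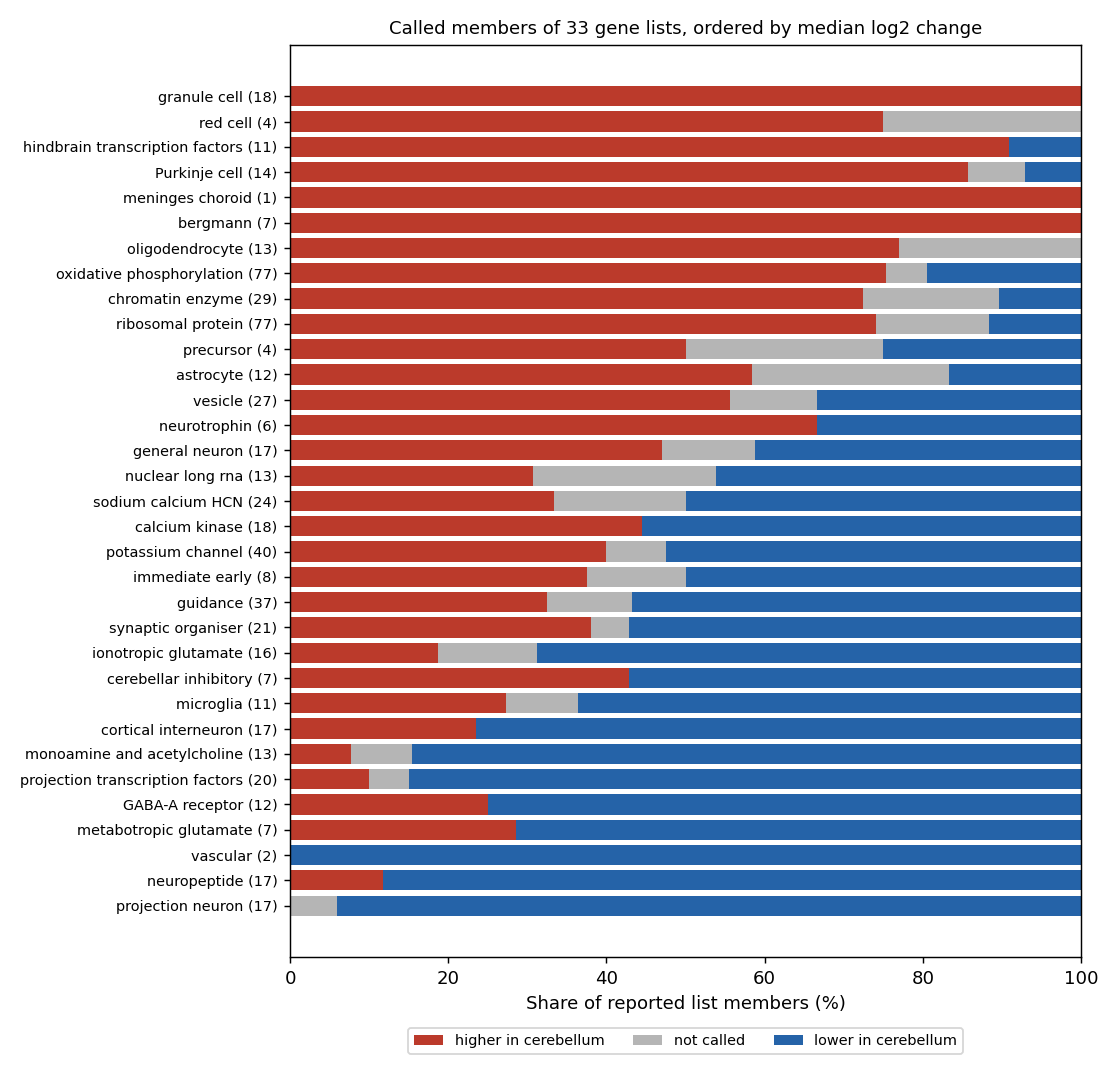
Share of the reported members of 33 gene lists that were higher, not called or lower in cerebellar NeuN+ nuclei, ordered by the median log2 change; the number of reported members is in parentheses. Granule cell genes are all higher and 16 of 17 projection neuron genes are lower. However, 9 of the 18 granule cell genes were under 1 FPKM in both prefrontal libraries. Of the 17 projection neuron genes, 11 were under 1 FPKM in both cerebellar ones, so these shares support no direction.

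The main Grin2 subunit was not the same gene in the 2 regions. FPKM is already per length, so members can be set beside each other. Of the summed FPKM of the 4 Grin2 genes, which encode the modulatory NMDA receptor subunits, Grin2c took 93.2% and 92.8% in the cerebellar libraries and 0.484% and 0.562% in the prefrontal ones. Grin2b took 0.551% and 0.59% in cerebellum and 71.8% and 68% in PFC. Grin2b, the subunit that predominates in the young forebrain, stood at 0.776 and 0.841 FPKM against 35 and 31.5 (log2 change -4.28 ± 0.11, SE), while Grin2a differed less, at 8.74 and 9.39 against 13.1 and 14.2.

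The alpha subunits of GABA-A receptors also differed in their shares. Gabra6 took 88.2% and 88.5% of the 6 alpha subunits in cerebellum and none in PFC. Gabra5, an extrasynaptic subunit of the forebrain, stood at 0.024 and 0 FPKM against 27.5 and 27.4. Of 15 GABA-A genes 12 were reported, 9 lower and 3 higher (Gabra6, Gabrd and Gabrb2). In both cerebellar libraries 8 of the 15 were under 1 FPKM, against 4 in PFC, so this count supports no direction. Gabrb1 was lower (3.26 and 2.83 against 87.1 and 86.7 FPKM), while in NeuN- nuclei it stood at 121 and 120.3 FPKM in cerebellum and 96.1 and 104 in PFC.

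Of 18 ionotropic glutamate receptor genes 16 were reported, 11 (68.8%) lower, 3 (18.8%) higher and 2 not called in NeuN+ nuclei. In NeuN- nuclei 11 of the 16 were higher and 3 lower in cerebellum. Gria3, an AMPA receptor subunit, stood at 6.87 and 6.85 FPKM in cerebellum and 74.8 and 75 in PFC, and Gria1 at 5.52 and 5.21 against 23.9 and 24.4. Gria2, the subunit that limits calcium entry, took the largest share of the 4 AMPA subunits in both regions, 74% and 75.3% in cerebellum and 71.7% and 72% in PFC.

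Metabotropic receptors differed by member. Grm4, a presynaptic receptor of granule cell axons, stood at 22.6 and 23.3 FPKM in cerebellum and 0.214 and 0.493 in PFC, and took 56.9% and 59.2% of the 8 Grm genes in cerebellum. Grm5 and Grm7 stood at 0.722 and 0.61 and 0.657 and 0.704 FPKM in cerebellum and at 31.7 and 33.1 and 34.4 and 37.9 in PFC. Of the 8 genes 7 were reported, 5 lower and 2 higher, and Grm6 was listed at 0 in all 4 libraries. In both cerebellar libraries 4 of the 8 were under 1 FPKM, against 2 in PFC, so this count supports no direction.

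Ion channels and calcium-dependent kinases were mixed. Of 49 potassium channel genes 40 were reported, 16 (40%) higher and 21 (52.5%) lower, not far from the shares of all features. In both cerebellar libraries 20 of the 49 were under 1 FPKM, against 10 in PFC. Kcnc1, a fast delayed rectifier, stood at 73.8 and 72.1 FPKM in cerebellum against 13.4 and 13.1 in PFC, and the leak channel Kcnk10 at 19 and 18.3 against 1.55 and 1.94. Kcnh7 and Kcnv1 were listed at 0 in cerebellum, with 27.7 and 29.8 and 15.6 and 15.3 FPKM in PFC. Of 30 sodium, calcium and HCN channel genes, 24 were reported, 8 (33.3%) higher and 12 (50%) lower. Cacng3, an AMPA receptor auxiliary subunit, stood at 0.269 and 0.0399 FPKM against 17.4 and 16.8, and Cacng2 at 8.1 and 6.67 against 2.75 and 3.29.

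Kinase genes divided by member. Camk2a, the kinase of forebrain excitatory synapses, stood at 1.14 and 0.987 FPKM in cerebellum and 21.5 and 22.1 in PFC, and Camk4, a nuclear kinase abundant in granule cells, at 43.4 and 43.2 against 12 and 11.6. Of 18 members found, 8 were higher and 10 lower. Camk2b took the largest share of the 4 Camk2 genes in both regions, 63.4% and 62.3% in cerebellum and 37.7% and 35.1% in PFC.

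Vesicle proteins also differed by member. Of 31 listed, 27 were reported, 15 (55.6%) higher and 9 (33.3%) lower. Unc13c, a priming factor of cerebellar synapses, stood at 14.6 and 14 FPKM in cerebellum and 0.515 and 0.592 in PFC, while Unc13b stood at 0.507 and 0.572 against 16.8 and 15.9. Unc13c took 85.5% and 84.9% of the 3 Unc13 genes in cerebellum, and Unc13b took 88% and 88.3% in PFC. Syt2, the fast calcium sensor of hindbrain synapses, stood at 17.3 and 18.8 FPKM against 0.682 and 0.549. Stx1a, a fusion protein of the vesicle machinery, was lower, at 0.254 and 0.141 against 21.2 and 18.7.

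Synaptic organisers and guidance genes changed in both directions. Of 28 organisers 21 were reported, 8 (38.1%) higher and 12 (57.1%) lower, and 14 of the 28 were under 1 FPKM in both cerebellar libraries, against 8 in PFC. C1ql3, a secreted relative of the cerebellins, stood at 0.0201 and 0.0178 FPKM in cerebellum and 32.4 and 30.8 in PFC. C1ql3 overlaps Pter. Lrrtm1 and Flrt2, adhesion proteins of excitatory synapses, stood at 0.154 and 0.547 and 0.103 and 0.115 FPKM in cerebellum, and at 14.1 and 13.1 and 9.31 and 9.6 in PFC. Of 45 guidance genes 37 were reported, 12 (32.4%) higher and 21 (56.8%) lower, and 19 of the 45 were under 1 FPKM in both cerebellar libraries, against 12 in PFC. Ephb6 and Epha4, receptors of ephrins, stood at 1.15 and 1.37 and 1.08 and 1.03 FPKM in cerebellum against 36.9 and 34.6 and 15.5 and 17 in PFC. Unc5b, a netrin receptor, was higher (7.62 and 8.56 against 0.347 and 0.219 FPKM).

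Receptors for monoamines and acetylcholine were seldom above the filter. Of 34 found, 13 were reported, 11 lower, 1 higher and 1 not called. Because 32 of the 34 were under 1 FPKM in both cerebellar libraries, against 18 in PFC, most of the 13 passed the filter only through PFC. Chrm1 and Chrm3, muscarinic receptors, stood at 0.159 and 0.121 and 0.0601 and 0.0356 FPKM in cerebellum, and at 4.72 and 4.7 and 5.07 and 4.26 in PFC. The higher member was Chrnb2, a nicotinic subunit that overlaps Adar (5.11 and 5.6 against 2.23 and 1.83 FPKM).

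Activity-regulated genes and neurotrophins divided by member. Of 14 immediate early genes 8 were reported, 3 higher, 4 lower and 1 not called. Egr3, a zinc finger factor induced by activity, was listed at 0 in cerebellum and stood at 4.57 and 4.57 FPKM in PFC, and Arc, a regulator of AMPA receptor trafficking, stood at 1.33 and 1.33 against 4.52 and 4.42. Fos and Egr1, which are induced by many stimuli, were higher, at 11.5 and 9.86 against 7.25 and 6.07 and 6.69 and 8.17 against 4.32 and 4.85 FPKM. Of 8 neurotrophin genes 6 were reported, 4 higher and 2 lower. Ntrk3, the receptor of neurotrophin 3, stood at 89.9 and 89.9 FPKM against 54.6 and 53.6, and its ligand Ntf3 at 4.68 and 4.21 against 2.39 and 1.54. Ntrk2, the receptor of Bdnf, was lower (log2 change -1.18 ± 0.06, SE), at 9.45 and 10.0 FPKM against 22.7 and 23.5, as was Bdnf, at 5.02 and 4.71 against 6.77 and 6.32. Of 11 genes of other cerebellar interneurons 7 were reported, 3 higher and 4 lower. In both cerebellar libraries 5 of the 11 were under 1 FPKM, against 6 in PFC. Tfap2b, a factor of inhibitory precursors, was higher, at 3.05 and 3.1 FPKM against 0.156 and 0.125. Ptprk had the largest decrease of the list, at 1.41 and 1.42 FPKM against 16.8 and 16.2.

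Most messages of respiration and the ribosome were higher in cerebellar NeuN+ nuclei. Of 81 oxidative phosphorylation genes 77 were reported, 58 (75.3%) higher, 15 (19.5%) lower and 4 not called, with a median log2 change of 0.82. Their summed FPKM was 25854 and 25815 in cerebellum and 14321 and 13901 in PFC. In NeuN- nuclei 15 of the 77 were higher and 32 lower. Of 80 ribosomal protein genes 77 were reported, 57 (74%) higher and 9 (11.7%) lower, with a median of 0.63 and sums of 8684 and 8616 FPKM against 5479 and 5296. In NeuN- nuclei 20 of these 77 were higher and 24 lower. Many members have near-identical pseudogenes, so their single values are uncertain. Rpl36 stood at 258 and 235 FPKM in cerebellum against 69.2 and 68 in PFC. Atp5j, a subunit of ATP synthase that overlaps Gabpa, stood at 1007 and 1002 FPKM against 387 and 366 and was among the most abundant messages of cerebellum. Cox6a2, a cytochrome oxidase isoform, was listed at 0 in cerebellum and stood at 11.9 and 8.78 FPKM in PFC.

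Chromatin enzymes rose more often than they fell. Of 31 genes 29 were reported, 21 (72.4%) higher, 3 (10.3%) lower and 5 not called, with a median log2 change of 0.67, though only 4 of the 21 reached 2-fold. In NeuN- nuclei 20 of the 29 were higher and 4 lower. Tet1, which oxidises methylated cytosine, stood at 3.84 and 4.34 FPKM in cerebellum against 1.11 and 1.13 in PFC, and its relative Tet2 at 2.59 and 2.73 against 5.73 and 5.55. Hdac9, a histone deacetylase, was the largest decrease (0.272 and 0.356 against 6.76 and 6.35 FPKM).

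Long noncoding RNAs differed in both directions. Of the 13 reported nuclear RNAs, 4 were higher and 6 lower. Miat stood at 0.551 and 0.465 FPKM in cerebellum and 49.7 and 46.6 in PFC (log2 change -5.07 ± 0.07, SE). Neat1, the scaffold of paraspeckles, stood at 10.6 and 10.2 FPKM against 0.766 and 1.12, with 304 and 309.9 and 125 and 121 in the NeuN- libraries. Malat1 is left out, because the tables list it at 0 in both cerebellar libraries with a warning of too many fragments.

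Some abundant RNAs were not called between the regions. Meg3, an imprinted nuclear RNA of neurons, stood at 449 and 459 FPKM in cerebellum and 480.2 and 477 in PFC, with a 95% interval of the log2 change of -0.19 to 0.01. Snhg20 stood at 871 and 868 FPKM against 848 and 789.7, with an interval of -0.14 to 0.30, and Idh3g, a mitochondrial dehydrogenase subunit, at 398 and 392 against 377 and 379.9, with an interval of -0.05 to 0.16. Together with Lsm7 and Ipw, these were the 5 most abundant ranked features within 0.1 on the log2 scale and not called. A missed threshold does not show equality. Under quantile normalisation Meg3 was called lower, and the estimates of Snhg20 and Idh3g fell just below 0.

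Ubb and Calm2 were among the 6 most abundant features of both regions, and the other 4 of each region were not shared. Ubb, ubiquitin, stood at 1496 and 1504 FPKM in cerebellum and 2518 and 2555 in PFC (log2 change -0.77 ± 0.06, SE), and the sign turned to 0.16 and was not called under quantile normalisation. Calm2, calmodulin, stood at 1218 and 1253 FPKM against 2700.1 and 2743, and its call was lost under quantile normalisation (log2 change -0.35, adjusted p = 0.0852, limma). Rsrp1, an arginine and serine rich protein, had the highest mean in PFC (3982 and 3891 FPKM) among the features ranked and stood at 934 and 948 in cerebellum.

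Glial and blood genes also differed between the NeuN+ libraries, at levels below those of the NeuN- libraries for glia. Bergmann glia are the radial astrocytes of the cerebellum, and all 7 of their listed genes were higher in cerebellum. They summed to 112 and 109 FPKM in cerebellum and 31.3 and 31.9 in PFC. In NeuN- nuclei they summed to 751 and 755 FPKM in cerebellum and 569 and 576 in PFC. The listed genes are thus not particular to Bergmann glia. The 16 oligodendrocyte genes summed to 244 and 237 FPKM in cerebellum and 109 and 101 in PFC, with 10 of the 13 reported members higher. In NeuN- nuclei they summed to 1852 and 1903 FPKM in cerebellum and 2751 and 2715 in PFC. There 3 of the 13 were higher and 8 lower in cerebellum. Astrocyte genes summed in NeuN+ nuclei to 103 and 97 FPKM against 72 and 71.3, with 7 of the 12 reported higher and 2 lower. In NeuN- nuclei they summed to 1023 and 1035 FPKM in cerebellum and 1323 and 1344 in PFC, with 6 of the 12 higher and 4 lower. The 5 red blood cell genes summed in NeuN+ nuclei to 611 and 622 FPKM against 184 and 183, and 3 of the 4 reported, all globins, were higher. Microglial genes summed to 27.2 and 30.4 FPKM against 55.9 and 60.1, with 7 of 11 lower and 3 higher, and Aif1 was listed at 0 in cerebellum. In both cerebellar libraries 7 of the 14 listed were under 1 FPKM, against 3 in PFC. In NeuN- nuclei the microglial genes summed to 84 and 84.4 FPKM in cerebellum and 1080 and 1078 in PFC, with all 11 lower. The 10 genes of oligodendrocyte precursors summed in NeuN+ nuclei to 15.5 and 14.4 FPKM against 18.1 and 17.6, with 2 of the 4 reported higher and 1 lower. In NeuN- nuclei they summed to 56.3 and 56.8 FPKM in cerebellum and 152 and 155 in PFC. The 14 vascular genes summed in NeuN+ nuclei to 2.41 and 1.58 FPKM against 12.5 and 14.1, with both reported members lower. In both cerebellar libraries 13 of the 14 were under 1 FPKM, against 12 in PFC, so this count supports no direction. The 10 genes of meninges and choroid plexus summed to 2.92 and 3.1 FPKM against 1.08 and 1.51. The member reported, Ttr, was higher, but it was listed at 0 in PFC and passed the filter only through cerebellum. The part of these glial, blood and other non-neuronal genes in the region differences was not tested.

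Long genes tended to be lower in cerebellum. Among the 1994 features whose locus spans under 5 kb, the median log2 change was 0.16, and among the 164 spanning over 500 kb it was -0.94, with 37 higher and 108 lower. In the NeuN- libraries the median of those 164 features was -0.25. The share that was lower by at least 2-fold rose from 19.3% in the shortest bin to 32.5% at 200 to 500 kb and 48.8% over 500 kb, against 21% over all features. Features share families and neighbours and are not independent, so this is a description.

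**Figure D4:**
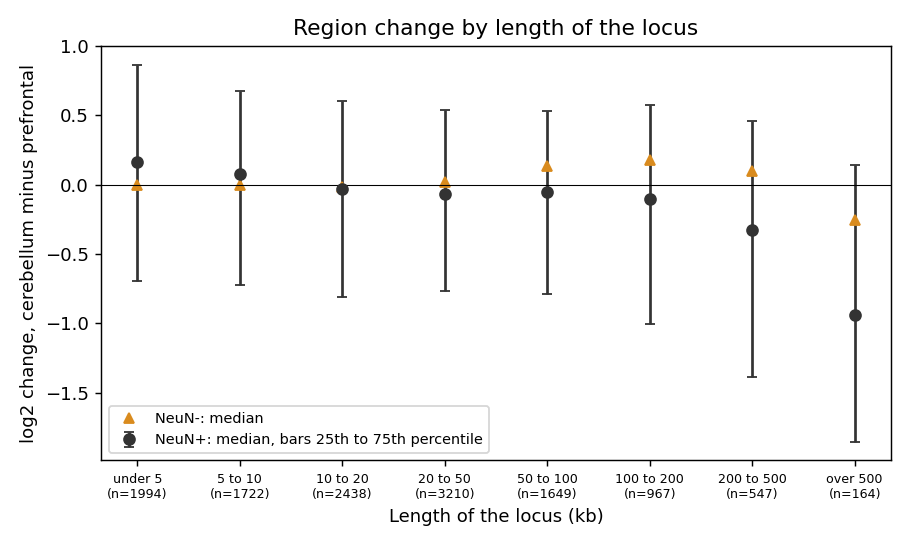
Median log2 change (cerebellum minus PFC) of features by the length of the locus in kb; bars give the 25th to 75th percentile in NeuN+ nuclei and triangles the NeuN- median. The NeuN+ median falls from 0.16 under 5 kb to -0.94 over 500 kb.

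Promoter windows of strongly changed genes held fewer CpG dinucleotides. A single RefSeq window was matched for 7820 reported features, with a median of 21 CpG in the whole window of 300 bases, from 250 before to 50 after the start. The median was 15 in the 201 matched features at least 4-fold higher in cerebellum and 18 in the 469 at least 4-fold lower. Windows with under 5 CpG made up 19.9% of the first group, 9.81% of the second and 7.81% of all reported features. CAGCTG was present in 16.9% and 16.2% of these windows, 14.6% of the windows of reported features and 16.1% of all windows. CAGATG was present in 9.95% and 10.0%, against 10.9% and 17.4%.

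Many region differences were shared with NeuN- nuclei, yet their size often differed. In NeuN- nuclei 5118 (40.3%) of the same 12691 features were higher and 4907 (38.7%) lower in cerebellum. Of the 4978 features higher in cerebellar NeuN+ nuclei, 3224 (64.8%) were also higher in cerebellar NeuN- nuclei and 778 were lower there. Of the 5347 lower ones, 3364 (62.9%) were also lower and 1025 were higher. The difference of the region changes between the gates, tested in the same limma fit, was called for 8848 features (69.7%), 4189 (33%) with a higher and 4659 (36.7%) with a lower change in NeuN+ nuclei. The 375 features at least 4-fold higher, chosen on their NeuN+ change, had a median log2 change of 2.65 in NeuN+ and 1.24 in NeuN- nuclei. A smaller NeuN- median follows in part from that choice, so these medians support no difference between the gates.

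Under the naming rule, Grin2c had the largest such difference in the direction of cerebellum. In NeuN- nuclei it stood at 14.7 and 14.2 FPKM in cerebellum and 24.9 and 23.3 in PFC, so its region change was -0.48 there and 6.77 in NeuN+ nuclei. Lyn, a Src family kinase, stood at 10.6 and 11.8 FPKM in cerebellar and 0.208 and 0.202 in prefrontal NeuN+ nuclei, and at 5.9 and 5.29 and 12 and 13.2 in NeuN- nuclei. In the other direction, Abi3bp, an extracellular matrix protein, stood at 2 and 1.99 and 5.45 and 5.81 FPKM in NeuN+ nuclei and at 42.4 and 42.9 and 0.264 and 0.304 in NeuN- nuclei of the same regions. Snhg11, an RNA of neuronal nuclei, stood at 433 and 448 and 867 and 873 FPKM in NeuN+ nuclei, and at 321 and 324 and 22.5 and 23 in NeuN- nuclei. The cerebellar NeuN- libraries thus held far more Snhg11 than the prefrontal ones, as they did of Meg3 (182 and 193 against 12 and 11.6 FPKM).

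**Figure D5:**
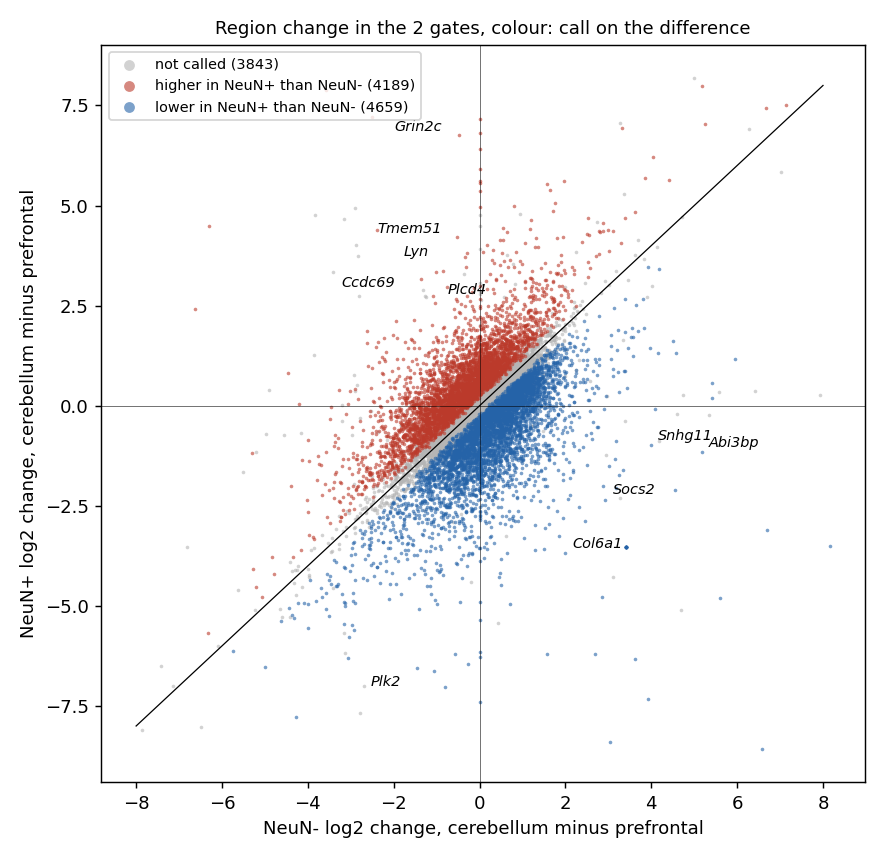
Region change (log2, cerebellum minus PFC) of the 12691 features in NeuN- (x axis) and NeuN+ (y axis) nuclei; the line marks equal changes and colours mark the call on the difference. The 10 labelled genes have the largest called differences under the naming rule, from Grin2c above the line to Abi3bp below it.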

How the data were processed

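RNA-seq of sorted nuclei gave 8 deposited gene tables, 2 per group, of which the 4 NeuN+ tables carry the comparison. Per the file headers, the authors deposited FPKM with confidence limits, positions and a status for each gene, in the Cufflinks format. Bowtie 1.1.1, TopHat2 2.1.1, Cufflinks, Bismark, Trim Galore 0.3.7 and mm9 appear, with no roles, in the submitters' processing notes. The sources used here do not give annotation or strand use. FPKM already divide by library size and transcript length, so no count test was run, and an exact 0 can be a failed estimate. In 70 features of 56 to 136 bases, all miRNA or snoRNA genes, 1 library of a region was listed at 0 and the other reached at least 5 FPKM.

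FPKM were multiplied by median-of-ratios factors (0.878 to 1.05, from 9102 features that reached 1 FPKM in every library). The 14376 features with at least 1 FPKM in 2 or more of 8 libraries were fitted as log2(scaled FPKM + 1) with limma 3.58.1 in R 4.3.3 (1 mean per group, variance trend, 4 residual degrees of freedom, two-sided tests, adjustment over the fit). The script was tested on simulated data. Named genes were first the 12 largest called changes per direction whose libraries did not overlap between the regions. They needed a mean of at least 5 FPKM in the higher region and a span of at least 300 bases. Per list, up to 3 members moving with most of it and 2 moving against it were named. Others were the 6 most abundant features per region, the 5 most abundant steady features and Rbfox3. The 5 largest differences between gates per direction came only from features meeting the conditions of the first group in that same direction. Other list members in the text were named after their values were seen. Members, the 33 lists and tests were chosen with earlier results of these data known. Promoter windows are those of RefSeq on GRCm38.p6, matched by symbol. Same-numbered libraries did not deviate together, so numbers were not used as pairs. Alternatives covered scaling, pseudocount, filters, variance trend, library sets, the replicate number, overlapping features and short features, the last 2 added after seeing the data.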

Additional observations from a re-analysis of the deposited data

Results flagged for a closer look

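The difference of the region change between NeuN+ and NeuN- nuclei was called for 8848 features (limma, adjusted p under 0.05), and the features below had the largest differences under the naming rule. In the direction of cerebellum, the difference on the log2 scale was 7.25 ± 0.07 (SE) for Grin2c, 4.75 ± 0.10 for Tmem51, 4.53 ± 0.12 for Ccdc69, 4.35 ± 0.17 for Plcd4 and 4.22 ± 0.12 for Lyn. In the other direction it was -6.34 ± 0.09 for Abi3bp, -5.67 ± 0.16 for Col6a1, -5.27 ± 0.10 for Socs2, -5.09 ± 0.09 for Plk2 and -4.98 ± 0.06 for Snhg11. The adjusted p ran from 8.23e-08 for Grin2c to 5.44e-06 for Plcd4 over these 10 genes. Ccdc69 was listed at 0 in both prefrontal NeuN+ and both cerebellar NeuN- libraries. Tmem51, Plcd4 and Lyn overlap other features.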

How the results depend on the processing

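Restricting the fit to a mean of at least 5 FPKM left 7520 features, of which 2937 were higher and 3257 lower in cerebellar NeuN+ nuclei, 965 and 1409 of them by at least 2-fold, and 5440 differed between the gates. These counts are lower because fewer features were tested. Under the other alternatives every one of these 5 counts stayed within 1.5 times its value. Which direction had more calls depended on the scaling. Quantile normalisation gave 5474 higher and 4830 lower features and a common sum 5350 and 5040, against 4978 and 5347 in the main fit. By at least 2-fold, lower features stayed more numerous, with 2005 higher and 2275 lower under quantile normalisation and 1976 and 2530 under a common sum. Leaving out 1 library gave 4625 to 4655 higher and 5004 to 5069 lower features, 1715 to 1771 and 2643 to 2659 by at least 2-fold, and 8200 to 8228 that differed between the gates. With the replicate block the counts were 4948 higher and 5320 lower, 1725 and 2661 by at least 2-fold, and 8743 for the difference between gates, and same-numbered libraries correlated between -0.03 and 0.07. Features overlapping no other feature, an alternative chosen after seeing the data, gave 3825 higher and 4187 lower of 9656, and features of at least 300 bases, also added, gave 4976 and 5337 of 12479. Quantile normalisation shifted the median log2 change by 0.11 relative to the chosen scaling.

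Of 172 named features, 6 changed sign under at least 1 alternative: under quantile normalisation Ubb (0.16), Idh3g (-0.029), Ipw (-0.036), Lsm7 (-0.056) and Snhg20 (-0.043), under a common sum Meg3 (0.00097), and, over the fits that leave out 1 library, Ipw (-0.026 without prefrontal NeuN+ replicate 1, to 0.21 without prefrontal NeuN+ replicate 2). Calls were lost for Chgb, Nmb, Rpl26 and Calm2 under at least 1 alternative; Rpl26, a ribosomal protein gene, lost its call in 3 of the leave-one-out fits. The cause was not tested. Of 66 list counts, 31 moved by over 1.5 times under the filter at 5 FPKM and 15 among features overlapping no other feature, where fewer members were tested. The relative depth of the libraries differs up to 1.39 times between the regions, and features near 1 FPKM are the least precise.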
